A study of Mus musculus with 88 samples.

Results

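The marker genes of striatal GABAergic interneurons were followed through RNA sequencing of mouse nucleus accumbens. The 10 genes were taken by name from the gene count table, which lists 55487 genes: Sst, Npy, Nos1, Pvalb, Th, Calb2, Cort, Lhx6, Vip and Kit. All 10 were found, and all 10 passed the filter on low counts that left 25420 genes for testing. They were chosen by name, as known interneuron markers, with earlier results of these data known.

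Most neurons of the accumbens are medium spiny projection neurons, and the local interneurons that shape their firing are a small minority. Striatal interneurons mostly descend from the medial ganglionic eminence, where the LIM-homeobox factor Lhx6 drives their specification and is kept in many of the adult cells. One class releases the peptides somatostatin (Sst) and neuropeptide Y (Npy) and makes nitric oxide with neuronal nitric oxide synthase (Nos1). Another class, the fast-spiking interneurons, holds the calcium buffer parvalbumin (Pvalb). Tyrosine hydroxylase (Th), the rate-limiting enzyme of catecholamine synthesis, marks a further interneuron class and also lies in the axons of midbrain dopamine neurons. Calb2 encodes the calcium buffer calretinin. Cort encodes cortistatin, a somatostatin-like peptide, and Vip encodes vasoactive intestinal peptide, both best known from cortical interneurons. Kit is a receptor tyrosine kinase that is found in some interneurons, in mast cells and in melanocytes.

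The activator used in the study carries CREB, a factor known to bind the cAMP response element, and Sst is the textbook gene with such an element. The letters TGACGTCA (the palindromic element) and TGACG or its reverse complement CGTCA (the short site, contained in the full element) were therefore searched on both strands in the 250 bases before each RefSeq start of GRCm38.p6. Of the 10 genes, 9 had an entry and 1, Calb2, did not. The full element was found for Sst and Th, and a short site alone for Vip, Cort and Nos1. No match was found in these windows for Npy, Pvalb, Lhx6 and Kit. Among 32851 promoters of the same length, 1.55% held the full element and 17.8% a short site. The windows of 30 bases around the match nearest the start are shown, 5′ to 3′ on the strand of the gene, with the element in capitals. The Sst element lay 48 bases before the start (chr16:23890874-23890903, minus strand), the Th element 45 (chr7:142900022-142900051, minus), the Vip short site 79 (chr10:5639127-5639156, plus), the Cort short site 18 (chr4:149126764-149126793, minus) and the Nos1 short site 130 (chr5:117866697-117866726, plus).
Sst: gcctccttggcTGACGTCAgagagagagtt
Th: cagaggggcttTGACGTCAgcctggccttt
Vip: ggatcactactgTGACGtctttcggggagc
Cort: ctccggcttgtgCGTCAccgcgtgagtgtg
Nos1: aaaccagccatgCGTCAggcttggcttcag

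Mice backcrossed to C57BL/6 received 2 herpes simplex virus vectors in the nucleus accumbens. One vector carried a dead Cas9 joined to CREB(S133D), a CREB mutant that is active without phosphorylation, and the other a guide RNA, either g11 against the Fosb locus or the non-targeting gNT. In the D1 arms the vectors depended on Cre and the mice were D1-Cre, in the D2 arms the vectors depended on Cre and the mice were D2-Cre, and in the D1-D2 arms the vectors did not depend on Cre and the mice were D1-Cre. Each arm was made in females and in males, giving 6 arms and 12 groups. Control-guide libraries numbered 8 (female D1), 4 (male D1), 8 (female D2), 8 (male D2), 8 (female D1-D2) and 7 (male D1-D2). Fosb-guide libraries numbered 6, 7, 8, 7, 12 and 4 in the same order. Tissue was taken 6 days after surgery, and every group, controls included, carried the activator. The dissected tissue holds infected and uninfected cells of all types, and the labels do not describe a sort or a targeting of interneurons. In such bulk samples fewer cells of a type and less RNA per cell cannot be told apart. Nothing in the labels says whether a library is 1 animal or a pool, so the p-values measure the spread between these libraries.

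The 87 libraries held 12430387 to 69568367 counts. Sequencing batch 2, as labelled, had 9 libraries, all of the male D2 arm (6 control and 3 Fosb guide), and the other 78 were of batch 1. In 4 libraries the 10 most abundant genes took over 90% of the counts (2 female D2, 1 female D1-D2 and 1 male D1-D2, all with the Fosb guide), which left few counts for every other gene. Medium spiny neuron genes marked the tissue in every library: Drd1 was at 42.6 to 449.6 CPM (counts scaled to a common library size) and Ppp1r1b at 65.4 to 833.9. CPM here are scaled by the TMM factors of edgeR. The targeted gene Fosb ranged from 2.43 to 16.7 CPM and did not pass the test in any arm. Its log2 difference between guides, Fosb guide minus control, lay between -0.37 in the female D2 arm and 0.60 in the male D1-D2 arm, where the adjusted p was 1 in both.

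The markers spanned a wide range of levels. Per kilobase of exon, Sst was the most abundant, with a median of 35.6 CPM per kilobase over the 87 libraries (7.96 to 102 CPM before division by length). Npy came next at 14.9 CPM per kilobase, followed by Calb2 (5.56), Pvalb (3.64), Kit (2.87), Th (2.55), Nos1 (2.15), Lhx6 (1.84), Vip (0.544) and Cort (0.536). Sst exceeded Npy per kilobase in 87 of 87 libraries and Npy exceeded Calb2 in 82. Neighbours further down were less separate: Calb2 exceeded Pvalb in 65 libraries, Pvalb exceeded Kit in 61, Kit exceeded Th in 48, Th exceeded Nos1 in 62 and Nos1 exceeded Lhx6 in 54, so these ranges overlap. Lhx6 exceeded Vip in 75 libraries, and Vip exceeded Cort in 39, so the order of the last pair is not settled.

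The genes also differed in how much they varied between libraries of 1 group. Kit was the steadiest, with a standard deviation of 0.263 log2 units after removing group and batch means, below the median of 0.33 for genes with a mean of at least 1 CPM. Cort (1.33) and Vip (1.24) varied most, more than 97.5% and 96.7% of those genes. Pvalb (0.921) and Calb2 (0.885) followed. Sst (0.68), Npy (0.632), Lhx6 (0.515), Nos1 (0.508) and Th (0.45) lay between them and Kit, so 9 of the 10 markers varied more than the median of genes over 1 CPM. Against the median of 0.529 for all genes tested, 6 of the 10 varied more. Cort was close to the limit of detection: 40 of 87 libraries had under 10 Cort counts. It was at 0 in 1 female D1 control library, whose depth allows up to 0.65 CPM (3 counts, counting error only).

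**Figure D1:**
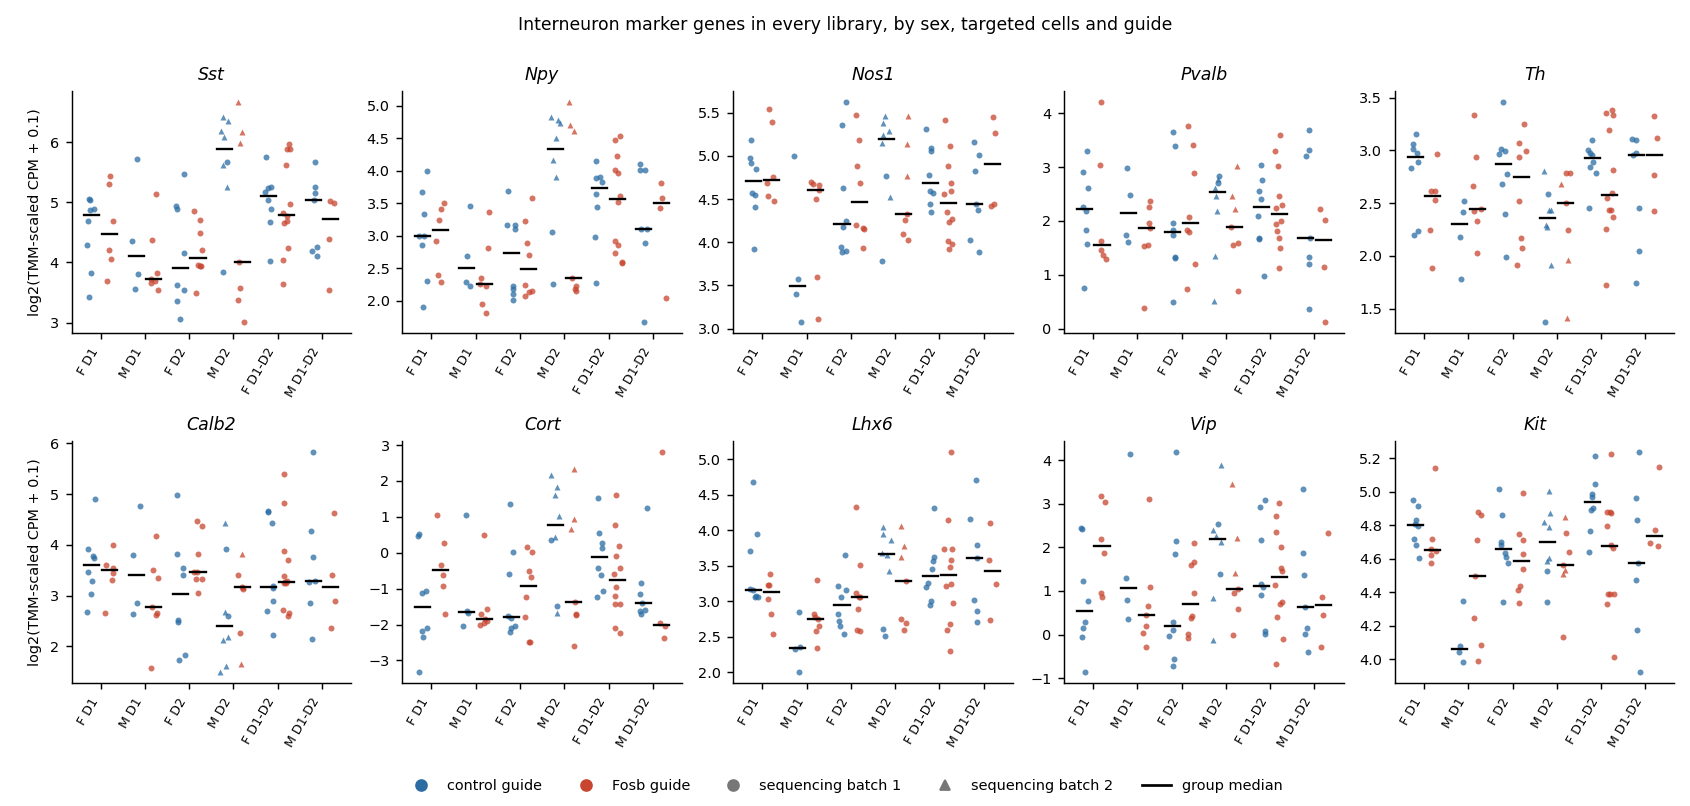
TMM-scaled CPM of each marker gene in every library, on a log2 axis after adding 0.1, by arm (F female, M male) and guide; circles are sequencing batch 1, triangles batch 2 and lines group medians. The 2 guides overlap for every gene in every arm, and in the male D2 arm the batch 2 triangles lie above all circles for Npy but not for Sst.

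The first question was whether targeting Fosb was followed by a change in these markers. No marker passed the test in any arm, and in none of the 60 pairs of a gene and an arm were the 2 guides' ranges separate. Separate ranges were not counted over all genes. The genes called at all were few, so the absence of calls is no feature of the markers. By edgeR's quasi-likelihood test, 0.00393% of the 25420 genes were called in the female D1 arm, 0% in the male D1, female D2 and female D1-D2 arms, 0.0629% in the male D2 arm and 0.00393% in the male D1-D2 arm. At an unadjusted p under 0.05, 2 of the 60 pairs were found, both Kit. The limma-voom alternative with quality weights called 1 marker, Nos1, in the male D1 arm, where it called 746 genes, and DESeq2 called none.

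The peptide genes showed wide spread under both guides. Sst in the female D1 arm was at 10.6 to 33.2 CPM with the control guide (median 27.5, n = 8) and 12.9 to 43.2 with the Fosb guide (median 22.1, n = 6). In the male D1 arm the 4 control libraries were at 11.7, 13.9, 20.3 and 52.6 CPM, and the 7 Fosb-guide libraries ranged from 11.6 to 35.0 (median 13.1). Both arms thus had overlapping Sst levels, and the highest control library of the male D1 arm stood well above the rest of its group. In the female D2 arm the ranges were 8.27 to 44.3 CPM (median 15.0) and 11.2 to 28.9 (median 16.8). In the female D1-D2 arm they were 16.2 to 54.0 (median 34.4) and 12.3 to 62.7 (median 27.7). The value of 62.7 came from library 19610, where the 10 most abundant genes took 96.8% of the counts. In the male D1-D2 arm the control libraries spanned 17.1 to 50.8 CPM (median 32.8) and the 4 Fosb-guide libraries were at 11.6, 20.97, 31.7 and 32.5. The guides again overlapped in each. Slc17a7, a gene of excitatory neurons, was unbalanced between guides in some arms. Its medians were 7.72 CPM (control) and 143 (Fosb guide) in female D1, and 179 and 13.6 in male D2 with both batches. They were 7.66 and 17.6 in female D2 and 4.49 and 8.75 in male D1-D2. In male D1 they were 9.75 and 8.52, and in female D1-D2 87.4 and 86.1. With Slc17a7 as a covariate no marker was called in any arm. In female D1, 0 of 10 differences were then above 0, beside 5 without it.

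The male D2 arm has both batches, and Sst has to be read within them. In batch 1 the 2 control libraries were at 14.3 and 50.7 CPM and the 4 Fosb-guide libraries between 7.96 and 15.9. In batch 2 the 6 controls ranged from 38.2 to 85.2 CPM (median 70.6) and the 3 Fosb-guide libraries from 63.7 to 102 (median 72.3). The log2 difference between guides was -0.44 ± 0.35 (SE) with both batches and a batch term, -1.54 ± 0.55 in batch 1 alone and 0.26 ± 0.25 in batch 2 alone, with adjusted p from edgeR of 1, 0.653 and 1. The direction therefore differed between batches, and neither value passed the test. In batch 1 Slc17a7 was at 37.1 and 237.6 CPM in the controls, the latter in the library with Sst at 50.7. The Fosb-guide libraries of batch 1 had 4.32 to 13.6 CPM of it. In batch 2 the ranges were 12.4 to 764 CPM (controls) and 123 to 640 (Fosb guide). The part of Slc17a7 in the values of single batches was not tested.

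Npy, the partner peptide of Sst in the same interneuron class, was at 3.09 to 23.04 CPM in batch 1 and 14.9 to 33.3 in batch 2. Its log2 difference between guides ranged from -0.28 to 0.04 over the 6 arms, with standard errors of 0.28 to 0.39. Nos1, which makes nitric oxide in these cells, had differences from -0.22 to 0.40. Cort and Vip had the widest ranges, -1.01 to 0.72 and -1.33 to 1.05, with standard errors up to 1.13 and 0.93. Both ends of the Vip range moved with the setting. Its low end lay in the male D1 arm, where the lowest difference of any marker was -0.19 without control library 18383. Its high end lay in the female D1 arm, where the highest of any marker was -0.00812 with Slc17a7 as a covariate. Vip had the smallest p of the 10 genes in the female D2 arm (log2 difference -0.95 ± 0.68 (SE), adjusted p 1, edgeR), and its value there was -0.021 with the same covariate. Pvalb had it in the male D1-D2 arm (-0.80 ± 0.61, adjusted p 1), where the 4 Fosb-guide libraries were at 0.99, 2.10, 3.95 and 4.59 CPM and the 7 controls at 1.19 to 12.8 (median 3.12). The library at 0.99 CPM had a single Pvalb count.

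Kit had the smallest standard errors of the 10 genes. Kit in the male D1 arm was at 15.7, 16.4, 16.8 and 20.3 CPM in the 4 control libraries and at 15.8 to 29.3 (median 22.4) in the 7 Fosb-guide libraries, so 3 of the 4 control libraries lay within the range of the other guide. The log2 difference was 0.39 ± 0.16 (SE), with an unadjusted p of 0.02 and an adjusted p of 0.686 from edgeR. In the female D1-D2 arm Kit was at 24.8 to 37.0 CPM (median 30.6, n = 8) in controls and 16.1 to 37.3 (median 25.4, n = 12) with the Fosb guide. That difference was of the other sign, -0.26 ± 0.12, with an unadjusted p of 0.0315 and an adjusted p of 1. The lowest Kit value of that arm, 16.1 CPM, came from library 19610 and rests on 10 counts. In that library the 10 most abundant genes took 96.8% of all counts. Lhx6 in the female D1 arm was at 8.24 to 25.5 CPM (median 8.85) in controls and 5.71 to 10.3 (median 8.66) with the Fosb guide, a log2 difference of -0.55 ± 0.28 with an adjusted p of 1. No marker had the same sign of difference in all 6 arms. In the male D1 arm 4 of the 10 differences were above 0, and 8 of 10 without control library 18383.

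**Figure D2:**
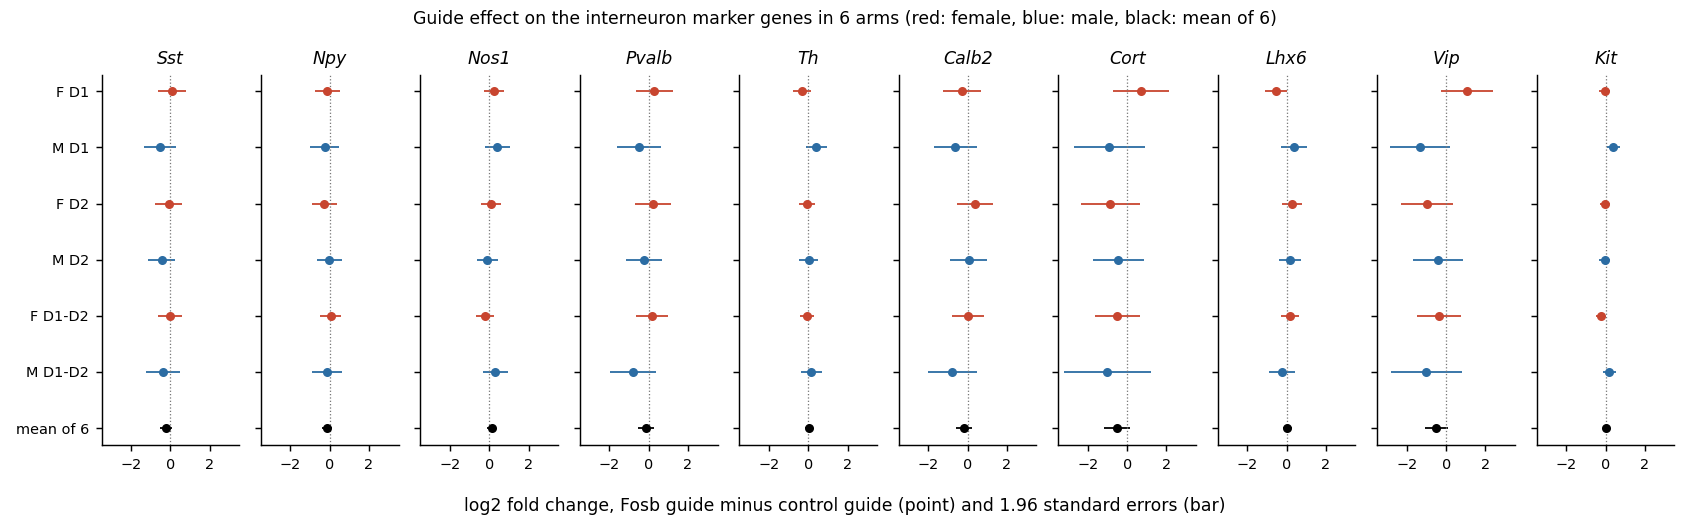
Log2 fold change of each marker gene, Fosb guide minus control guide, in each of 6 arms and as their mean, with bars of 1.96 standard errors from edgeR. The bars are narrowest for Kit and widest for Cort and Vip, and only the Kit bars of 2 arms, male D1 and female D1-D2, exclude 0.

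Averaging arms narrowed the errors and gave no call. Over all genes 0.00393% were called in the mean of the D1 arms, 0% in the mean of the D2 arms, 0% in the mean of the D1-D2 arms and 0% in the mean of all 6. Among the markers the smallest p belonged to Kit in the D1 mean (0.17 ± 0.11 (SE), adjusted p 0.7, edgeR), to Vip in the D2 mean (-0.69 ± 0.47, adjusted p 1) and to Vip in the D1-D2 mean (-0.68 ± 0.55, adjusted p 1). In the mean of all arms Vip was again the smallest (-0.50 ± 0.30, adjusted p 0.57). Its value was 0.01 by limma-voom, so its size rests on the method. The standard errors in that mean ran from 0.0585 for Kit to 0.334 for Cort, and the intervals of the 10 genes together reached from -1.16 to 0.342 log2 units.

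Guide effects were also compared between sexes and between targeted cells. In the D1 arms the female effect minus the male effect was 2.37 ± 1.03 (SE) for Vip, -0.73 ± 0.35 for Th, -0.91 ± 0.44 for Lhx6 and -0.44 ± 0.21 for Kit, each with an unadjusted p under 0.05 and an adjusted p of 0.987 by edgeR, and 0.00393% of all genes were called. All 4 differences use the 4 male D1 control libraries. With Slc17a7 as a covariate the Vip value was 0.42, and no alternative gave a call for these 4. In the D1-D2 arms Kit had the smallest p (-0.44 ± 0.20, adjusted p 1), with 0% of all genes called. In the D2 arms the smallest p was that of Pvalb (0.47 ± 0.66, adjusted p 1), also with 0% called. The D1 effect minus the D2 effect, averaged over the sexes, was smallest in p for Kit (0.22 ± 0.14, adjusted p 1), and 0.00393% of all genes were called.

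The genes of 5 lists that surround these markers gave the same count. None of the 9 genes of caudal ganglionic eminence cells, 7 other subtype genes, 9 receptors for somatostatin, neuropeptide Y and vasoactive intestinal peptide, 4 genes of Kit ligand and nitric oxide signalling or 4 catecholamine genes passed the test for the guide in any arm or mean. In the mean of all arms their median log2 differences were -0.01, -0.01, -0.06, 0.00 and -0.03 in that order, beside 0.00 for all 25420 genes.

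Control-guide libraries were compared between sexes, between mouse lines (D2-Cre and D1-Cre) and between vectors. The vector comparisons set Cre-independent against Cre-dependent vectors, both in D1-Cre mice. Lhx6, the interneuron specification factor, was at 3.92, 4.90, 5.05 and 7.14 CPM in the 4 male D1 control libraries and at 8.24 to 25.5 (median 8.85) in the 8 female ones, with no overlap. Kit was at 15.7, 16.4, 16.8 and 20.3 CPM in the males and 24.2 to 30.8 (median 27.8) in the females, again with no overlap. How many of all genes had such separate ranges was not counted. The female minus male log2 difference was 1.198 ± 0.34 (SE) for Lhx6 (adjusted p 0.00838, edgeR) and 0.67 ± 0.16 for Kit (adjusted p 0.00267). Nos1 (0.75 ± 0.32, adjusted p 0.0761) and Th (0.58 ± 0.26, adjusted p 0.0992) did not pass. Without male library 18383, at 32.0 CPM of Nos1 beside 8.35 to 11.8 in the other 3, Nos1 passed with 1.37 ± 0.35 (adjusted p 0.00452). Across all genes 22.4% were called in this comparison, so 2 of 10 markers is close to the background and is no feature of the interneuron genes.

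The male Cre-independent controls, also D1-Cre mice, compared with the same 4 male D1 controls gave the same 2 genes. Lhx6 was at 6.44 to 26.0 CPM (median 12.1, n = 7) and Kit at 15.1 to 37.7 (median 23.7) in the Cre-independent group, and both ranges overlapped the male D1 controls. The Cre-independent minus D1-Cre difference was 1.31 ± 0.35 log2 units for Lhx6 (adjusted p 0.017) and 0.54 ± 0.16 for Kit (adjusted p 0.0275) by edgeR, where 10.1% of all genes were called. Without male D1 control library 18068 no gene at all was called, and the adjusted p was 0.0781 for Lhx6 and 0.0934 for Kit. Without library 17789 Kit was no longer called (adjusted p 0.0848), as was the case without library 18383 (0.062). Without the batch term, a term that touches only the male D2 libraries, neither gene was called.

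The 4 male D1 control libraries stood apart in other measures as well. Their summed ribosomal protein gene level was 25141, 28677, 31920 and 34472 CPM, against a median of 18901 over the 87 libraries, and 9 of the other 83 libraries reached the lowest of the 4. Genes of other cells were called in the same sex comparison, all of them higher in the female D1 controls. The calls by edgeR, to be read beside the 22.4% of all genes, were 3 of 4 cholinergic interneuron genes (Chat, Slc5a7 and Slc18a3), 2 of 10 medium spiny neuron genes (Drd2 and Pdyn), 2 of 5 microglia genes (Cx3cr1 and Csf1r), 1 of 5 T lymphocyte genes (Cd4), 1 of 10 cortical neuron genes (Cux2) and 0 of 5 oligodendrocyte genes. Among the lists that surround the markers, 1 of 7 other subtype genes (Kcnc1) and 1 of 4 genes of Kit ligand and nitric oxide signalling (Gucy1a1) were called. The part of the ribosomal protein level and of these other cells in the marker differences was not tested. Of the 4 libraries, 18383 had 382 CPM of Slc17a7 and the others 5.27 to 13.3.

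**Figure D3:**
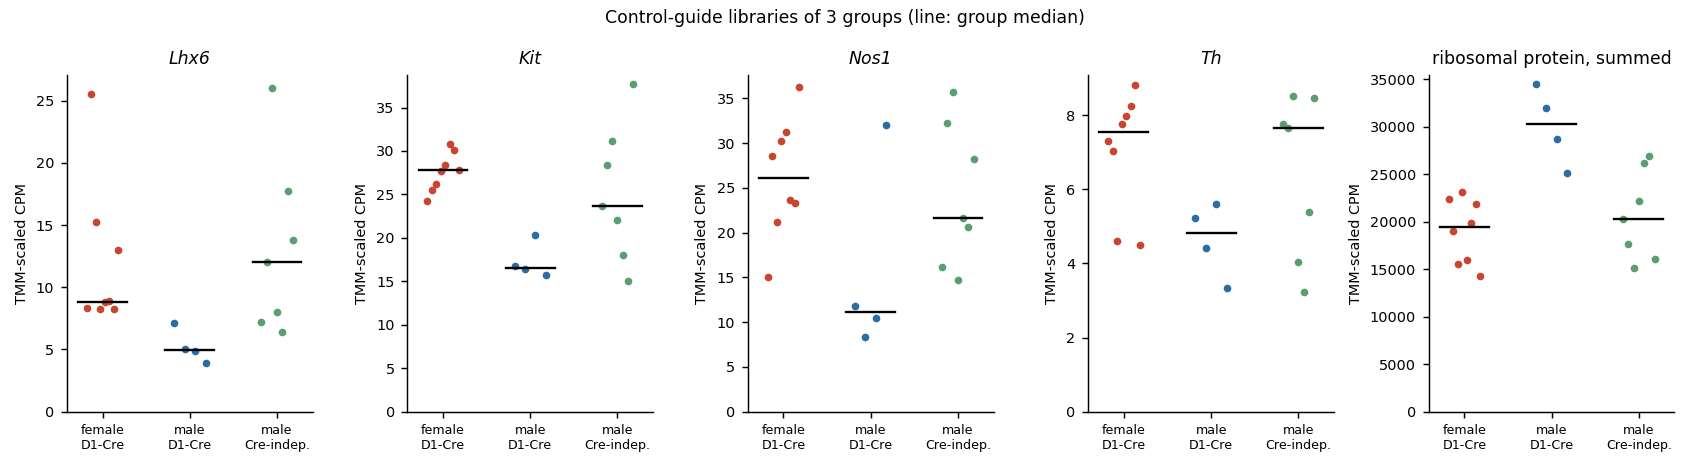
TMM-scaled CPM of Lhx6, Kit, Nos1 and Th and of the summed ribosomal protein genes in control-guide libraries of 3 groups. Points are libraries and lines medians. All 3 groups were D1-Cre mice, and the Cre-independent group differs from the male D1-Cre group in its vectors. The 4 male D1-Cre libraries are lowest for Lhx6 and Kit against the females and highest for the ribosomal protein genes against the females, and 1 of them stands apart for Nos1.

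The remaining control comparisons called no marker. Between female and male D2 controls 0.0551% of all genes were called, and the smallest p among the markers was that of Th (0.41 ± 0.29 (SE), adjusted p 0.573, edgeR). Of the male D2 controls 6 were of batch 2 and 2 of batch 1, and the female ones were all of batch 1. Sex and batch are thus nearly confounded in this comparison, and its values rest on the batch term. Between female and male D1-D2 controls 0.0629% were called, with Kit at 0.28 ± 0.13 (adjusted p 0.69). D2-Cre minus D1-Cre female controls gave 0.0197% of genes called and Lhx6 at -0.59 ± 0.26 (adjusted p 1). Cre-independent minus D1-Cre female controls gave 0.00393% and Cort at 1.04 ± 0.68 (adjusted p 1). The female D1 controls enter both of the last comparisons and the sex comparison of D1 controls, so those values are not independent.

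The second question was how the markers relate to Slc17a7, the vesicular glutamate transporter of cortical and other excitatory neurons. Slc17a7 ranged from 2.26 to 764 CPM across libraries. In batch 1 its log2 values left no gap wider than 0.661, while in batch 2 1 library (12.4 CPM) lay 3.08 log2 units below the other 8. The slope of each gene on log2 Slc17a7 was fitted within each batch with the groups as terms.

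Cort and Vip had the steepest slopes in both batches. In batch 1 Cort changed by 0.51 ± 0.03 log2 units per log2 unit of Slc17a7 (SE, adjusted p 4.18e-21, edgeR) and Vip by 0.47 ± 0.03 (adjusted p 3.79e-22). In the library lowest in Slc17a7 (2.26 CPM) Vip was at 0.452 CPM, and in the highest (584.8 CPM) it was at 18.2, the lowest and the highest Vip level of batch 1. In batch 2 the slopes were 0.77 ± 0.10 for Cort (adjusted p 0.00572) and 0.73 ± 0.07 for Vip (adjusted p 0.00165), with Vip at 0.824 CPM in the library lowest in Slc17a7 and 14.7 CPM in the highest. Across libraries the Pearson correlation of log2 Vip with log2 Slc17a7 was 0.87 in batch 1 (Spearman 0.83, both with a permutation p of 1e-05, the smallest the resamples can give, 78 libraries) and 0.86 without the 2 libraries farthest from the median of Slc17a7. In batch 2 it was 0.95 (Spearman 0.88, exact permutation p 5.2e-05 and 0.00308, 9 libraries) and 0.93 without 2 libraries. For Cort the correlations were 0.85 and 0.95. In all, 20 such relations were computed, and the permutation p-values are not adjusted.

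The Sst, Npy and Nos1 genes also had positive slopes in both batches. Sst changed by 0.18 ± 0.03 log2 units per log2 unit of Slc17a7 in batch 1 (adjusted p 7.4e-08) and 0.21 ± 0.04 in batch 2 (0.0172). Npy changed by 0.10 ± 0.03 (0.00784) and 0.16 ± 0.04 (0.0322), and Nos1 by 0.08 ± 0.03 (0.024) and 0.15 ± 0.04 (0.0498). The Nos1 calls were fragile and were lost in both batches without the 2 libraries farthest in Slc17a7. Its adjusted p from edgeR was then 0.0944 in batch 1 and 0.659 in batch 2, where r fell from 0.74 to 0.11. The batch 2 calls of Sst, Npy, Cort and Pvalb were also lost without those libraries. The 2 batch 2 libraries left out there were 2755, the lowest in Slc17a7, and 3631, the highest.

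The calcium buffers had larger estimated slopes in batch 2 than in batch 1. Pvalb had a slope of 0.15 ± 0.04 in batch 1 (adjusted p 0.00704, edgeR) and 0.42 ± 0.07 in batch 2 (0.00977). Calb2 had 0.06 ± 0.04 in batch 1, which did not pass (0.321), and 0.51 ± 0.11 in batch 2 (0.0257). Whether the slopes of the batches differ was not tested. Lhx6 and Th ran the other way in batch 1, with slopes of -0.09 ± 0.03 (adjusted p 0.00856) and -0.09 ± 0.02 (0.000662). In batch 2 neither passed, Lhx6 at 0.07 ± 0.04 (0.273) and Th at -0.13 ± 0.08 (0.292). Kit showed no slope that passed in either batch. Its intervals were -0.03 to 0.02 in batch 1 and -0.09 to 0.07 in batch 2, log2 units per log2 unit of Slc17a7. Without group terms, the Pearson correlation of Kit with Slc17a7 was -0.19 over the 9 batch 2 libraries. It was -0.85 over 7, without the 2 libraries farthest in Slc17a7. For Th these 2 values were -0.57 and -0.82. In batch 1 those of Kit were 0.02 and 0.03.

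In all, 8 of 10 markers passed in batch 1, 6 upward and 2 downward, where 17.0% of 25066 genes did, and 7 of 10 in batch 2, all upward, where 11.6% of 25292 did. The median slope of the 10 was 0.09 in batch 1 and 0.19 in batch 2, beside 0.00 for all genes in both. In batch 2, 2 of the 7 calls remained without the 2 libraries farthest in Slc17a7 (Vip and Calb2). Cortical neuron genes moved with Slc17a7, as 8 of 9 tested (Slc17a7 itself left out) passed upward in batch 1 and 7 of 9 in batch 2, with median slopes of 0.69 and 0.93. Of 9 peptide receptors, 5 passed upward and 1 downward in batch 1 and 5 upward in batch 2. The somatostatin receptors Sstr1, Sstr2, Sstr3 and Sstr4 passed upward in both, Sstr3 most steeply (0.41 ± 0.03 and 0.92 ± 0.06), and the neuropeptide Y receptor Npy2r passed downward in batch 1 (-0.21 ± 0.02, adjusted p 6.75e-14, edgeR). The 4 cholinergic interneuron genes all passed downward in batch 1. The part of cortical tissue in these slopes was not tested.

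**Figure D4:**
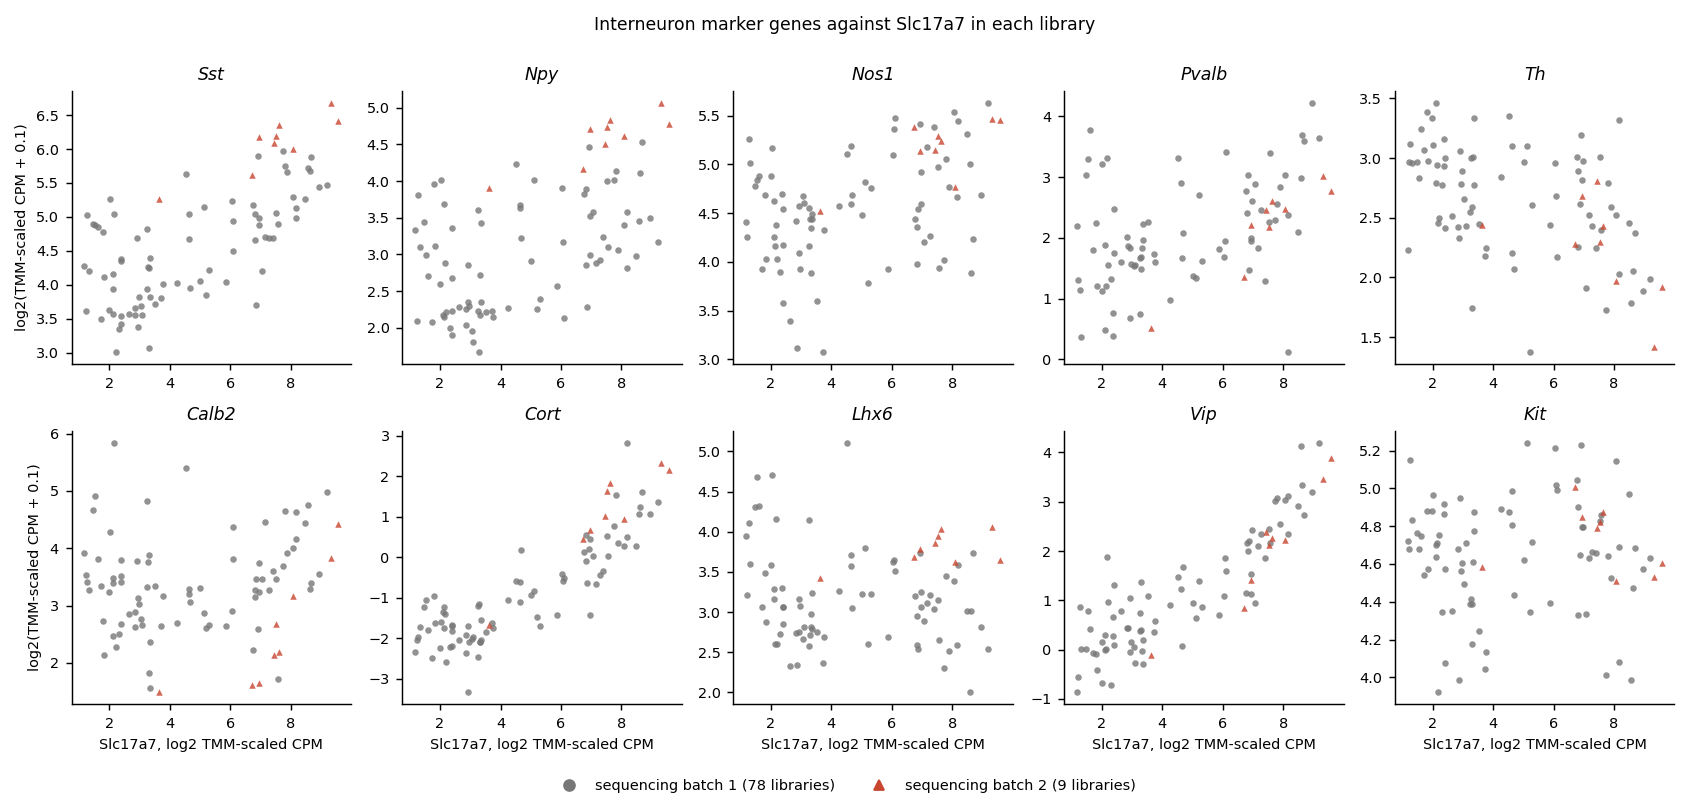
Each marker gene (log2 of TMM-scaled CPM plus 0.1) against Slc17a7 (log2 TMM-scaled CPM) in every library; circles are sequencing batch 1 and triangles batch 2. Vip and Cort climb steadily with Slc17a7, Kit does not, and several libraries low in Slc17a7 are among the highest for Lhx6.

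**Figure D5:**
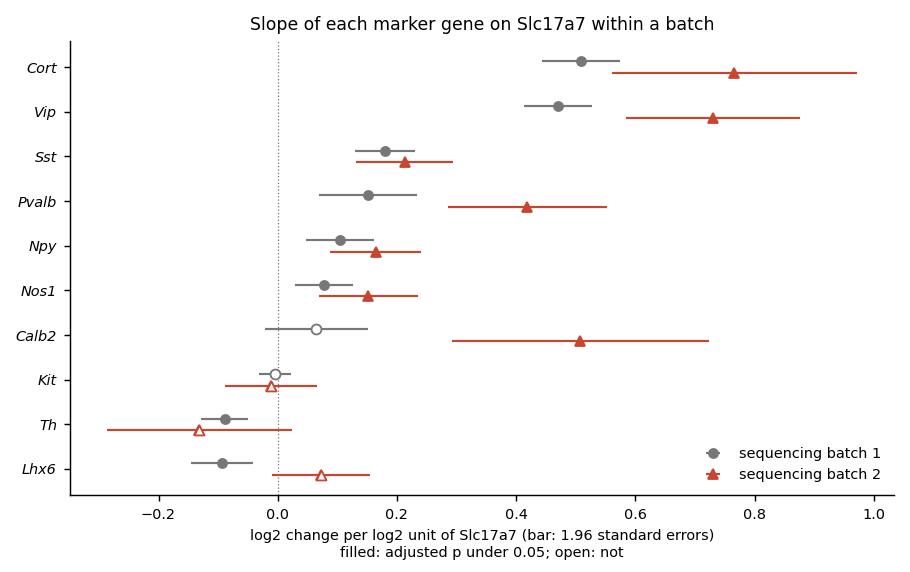
Slope of each marker gene on Slc17a7 within each sequencing batch from edgeR, in log2 units per log2 unit, with bars of 1.96 standard errors; filled symbols passed an adjusted p of 0.05 and open ones did not. Cort and Vip lie farthest to the right in both batches, and Lhx6 and Th lie left of 0 in batch 1.

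Marker levels also differed between sequencing batches, a comparison added after the values had been seen. Within the male D2 arm, Sst was at 7.96 to 50.7 CPM in the 6 batch 1 libraries and 38.2 to 102 in the 9 of batch 2. Npy was at 4.32 to 8.25 CPM in batch 1 and 14.9 to 33.3 in batch 2, with no overlap, a trait not counted over all genes. The batch 2 minus batch 1 difference was 2.23 ± 0.35 (SE) log2 units for Npy, 1.91 ± 0.38 for Sst, 2.71 ± 0.75 for Cort, 1.10 ± 0.30 for Lhx6 and 0.91 ± 0.28 for Nos1, with adjusted p-values of 5.45e-08, 1.07e-05, 0.00129, 0.00109 and 0.00385 from edgeR. Those 5 of 10 markers lie against 62.3% of all genes called, so the share is no higher than the background. Pvalb, Th, Calb2, Vip and Kit did not pass. The same 5 were called with Slc17a7 as a covariate. Summed ribosomal protein genes were at 4484 to 6641 CPM in batch 2 and 13745 to 34472 over all 78 batch 1 libraries, a gap whose part in the marker differences was not tested.

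Among themselves the markers formed pairs. With group and batch means removed, over the 87 libraries and as a description only, Cort and Vip correlated at r = 0.845 and Sst and Npy at r = 0.778. With Slc17a7 removed too, Cort and Vip fell to 0.383, while Sst and Npy were the closest pair (0.719). Next came Sst and Lhx6 (0.645), Calb2 and Vip (0.612), Nos1 and Lhx6 (0.579) and Th and Kit (0.576). Each point shares the depth of its library, and Nos1 and Lhx6 each overlap another annotated gene in exons (Nos1 the antisense gene Gm26995 over 268 bases, Lhx6 the small RNA Gm27953 over 104 bases of the same strand).

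The genes most like each marker over the same 87 libraries were searched among 17275 others with a mean of at least 1 CPM. For Vip they were Vxn (r = 0.922), Cck (0.918) and Bdnf (0.907), and for Cort the same 3, led by Cck (0.889). Sst was closest to Rph3a (0.889), Kcnj9 and Slc6a7. Npy was closest to Kif5c (0.786) and Sept8, with Sst in the third place. Pvalb was closest to Slc17a6 (0.818), another vesicular glutamate transporter, then Scn1a and Ankrd34c. Calb2 was closest to Grin3a (0.895), Cpne7 and Grhl1, Lhx6 to Tmem130 (0.833), Ache and Rims3, and Nos1 to Gm42372 (0.866), Wdfy3 and Tanc2. Th was closest to Camk1g (0.806), Dpy19l3 and 1700037H04Rik, and Kit to Kdm5b (0.777), Urb2 and 5330417C22Rik.

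Defining genes of other cells that carry Th or Kit were also read. Of 5 midbrain dopamine genes, 3 (En1, Foxa1 and Pitx3) had medians under 0.1 CPM. Slc18a2 had a median of 4.57 CPM and Slc6a3 of 0.653. The 5 summed to 2.57 to 16.1 CPM, with a median of 5.57. Whether Th RNA came with dopamine axons was not tested. Of 5 mast cell genes, 3 had medians under 0.1 CPM, and the 5 summed to a median of 0.347 CPM, beside 25.5 CPM of Kit. Melanocyte genes summed to a median of 1.502 CPM.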

How the data were processed

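Libraries were made from ribosome-depleted total RNA with a TruSeq Stranded Total RNA Gold kit, per the labels' protocols. The authors' deposited table holds raw gene counts, whole numbers per Ensembl gene, one column per library. HISAT2, Trim Galore, featureCounts (Subread), SAMtools and DESeq2 1.27 are listed with the build mm10, per the submitters' processing notes, without a role or order. The strand setting of the counting: not given in the sources used here. Of 88 labelled samples 87 have a column that matches them; 1 female D2 Fosb-guide sample was not analysed here, and 1 more column, which no label matched, was not used.

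The members and lists were chosen with earlier results of these data known, so p-values are adjusted over all genes and none over a list. Symbols came from a gene table, and exon lengths and positions from the GENCODE M21 annotation of mm10. Counts were filtered with filterByExpr by group, scaled by TMM and fitted with edgeR 4.0.16 (quasi-likelihood, robust), with 12 group terms and a batch term in 1 fit over all libraries, in R 4.3.3. A gene was called at a Benjamini-Hochberg adjusted p under 0.05. Slopes on log2 CPM of Slc17a7 (prior count 2) were fitted within each batch with group terms. Correlations used 100000 resamples in batch 1 and all 362880 pairings in batch 2. Bars and intervals are 1.96 standard errors. A log2 difference was printed for a marker with an unadjusted p under 0.05 or, where there was none, for the marker of the smallest p, and the 3 most alike genes by residual log2 CPM. Alternatives were DESeq2 size factors, no filter, DESeq2 1.42.0, limma-voom (limma 3.58.1), no batch term, a Slc17a7 covariate, other cortical genes in place of Slc17a7, no group terms, single arms or batches, and libraries left out. The fits were tested on simulated data. Some lists of the results tables are not reported here.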

Additional observations from a re-analysis of the deposited data

Results flagged for a closer look

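In groups of 4 to 10 libraries, 1 end value was set apart for 24 of 110 pairs of a gene and a group. Set apart means a gap over Dixon's critical share of the range. That share gives about 1 in 20 by chance for independent, normally spread values. CPM were used here without logs and the genes share libraries, so that rate is no measure for the 24. All 24 were high values.

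Vip and Cort took 13 of them. In library 17906 (female D2 control) Vip was at 18.2 CPM, with the next library at 4.36, Cort at 2.49 (next 0.918) and Calb2 at 31.5 (next 14.0). In library 18383 (male D1 control) Vip was at 17.4 CPM (next 2.37), Cort at 1.99 (next 0.226) and Nos1 at 32.0 (next 11.8). In library 18368 (male D1, Fosb guide) Vip was at 8.51 CPM (next 2.03), Cort at 1.31 (next 0.239) and Sst at 35.0 (next 20.7). In library 19219 (male D1-D2 control) Vip was at 9.99 CPM (next 3.57) and Cort at 2.26 (next 0.461). In batch 2, library 3631 (male D2 control) had Vip at 14.7 CPM (next 5.72), and library 3632 (male D2, Fosb guide) had Vip at 10.9 (next 4.54) and Cort at 4.93 (next 1.82). Cort was also set apart at 2.79 CPM in library 19598 (female D1-D2 control, next 1.37) and at 6.93 in library 18919 (male D1-D2, Fosb guide, next 0.157), where it rests on 7 counts. Of these 8 libraries, 7 had the highest Slc17a7 level of their group, at 287.6 to 763.7 CPM, and 19598 the next to highest, at 223.8 CPM.

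Lhx6 was set apart in 4 groups: 25.5 CPM in library 16585 (female D1 control), 19.7 in 19719 (female D1-D2 control), 19.9 in 18168 (female D2, Fosb guide) and 9.73 in 19112 (male D1, Fosb guide). Calb2 was at 30.02 CPM in 16585 and 57.04 in 19511 (male D1-D2 control). Pvalb was at 18.5 CPM in 16565 and Kit at 35.2 in 16754, both female D1 with the Fosb guide.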

How the results depend on the processing

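Of 225 recomputed counts of markers called, 218 stayed within 1.5 times the main count. The exceptions were 1 in the male D1 guide comparison by limma-voom (746 genes called against 0), 4 between female and male D2 controls without the batch term (11465 genes against 14), and, for male Cre-independent minus D1-Cre controls, 5 by limma-voom (8904 genes against 2567), 0 without the batch term (0 genes) and 0 to 2 without each D1 control library (0 to 2645 genes). In the slope of batch 2, 2 were called without the 2 libraries farthest in Slc17a7 (612 genes against 2924). Of 421 recomputed log2 differences, 391 kept direction and call, 21 lost a call, 4 gained one and 5 turned: by limma-voom Vip was 0.25 in the female D2 arm, 0.13 in the D2 mean and 0.012 in the mean of all arms, with the Slc17a7 covariate it was 0.0671 in the D2 mean, and Sst was 0.26 in the male D2 arm in batch 2 alone. The cause was not tested. Genes called in the male D2 guide comparison ranged from 0 to 427 against 16, and between female and male D1 controls from 2605 to 9399 against 5684. Batch 1 alone was added after the data were seen. No paired analysis was possible because the groups share no replicate numbers. Depth limits Cort most, since 40 libraries had under 10 counts.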

Other observations

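Genes of septum and pallidum, tissue that borders the accumbens, were read beside the markers. The 7 genes of that list (Zic1, Zic2, Zic4, Trpc4, Gbx1, Nkx2-1 and Slc17a6) summed to 18.3 to 235.6 CPM over the 87 libraries, with a median of 36.7. The 5 libraries with the highest sums were 18419 (235.6), 16585 (160.3), 17906 (138.4), 18150 (124.2) and 19511 (123.9). Calb2 ranked 13, 4, 3, 10 and 1 of 87 in them, with 20.7, 30.02, 31.5, 22.0 and 57.04 CPM. Pvalb ranked 6, 10, 4, 50 and 8. Lhx6 ranked 28, 3, 81, 46 and 6, so it did not follow the sum in each. Sst ranked 48, 37, 17, 42 and 30. Kit ranked 9, 44, 51, 52 and 87, the last at 15.1 CPM in 19511, so neither gene followed the sum in these 5 libraries. Slc17a7 was at 68.7, 2.91, 584.8, 143.3 and 4.49 CPM in them, beside a median of 24.8 over the 87 libraries. The parts of cortical and of septal or pallidal tissue in these marker levels were not tested. These libraries were read out after the values had been seen.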
